A study of Mus musculus with 15 samples.

Results

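The genes described are those of molecular chaperones, their co-chaperones and the folding machinery of the endoplasmic reticulum (ER). They were taken by name from the deposited gene table. Every gene whose symbol starts with Hsp, Dnaj, Pdia or Cct followed by a digit or letter was included, apart from Hspg2, together with Hyou1, Sdf2l1, Manf, Creld2, Xbp1, Ern1, Atf6, Herpud1, Hsf1 and Bag3. The rule gave 77 of the 10653 genes in the table and used no expression value. By the place where the proteins are known to act, 40 members were assigned to the cytosol and nucleus, 26 to the ER and 10 to mitochondria, and Hspbap1 was not assigned.

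The cells were MPI cells, a self-renewing and non-transformed line of mouse macrophages that depends on GM-CSF and is used as a model of alveolar macrophages. They derive from fetal liver of female mice of the C57BL6/J strain, and every group carries that background. In the first treated group they received riebeckite asbestos at 9 µg/cm², and in the second riebeckite cleavage fragments at 40 µg/cm². In the others they received tremolite asbestos at 5 µg/cm² or tremolite cleavage fragments at 60 µg/cm². Exposure lasted 24 h, the doses were matched by particle surface area and so differ in mass, and untreated cells formed the control. Asbestos denotes the fibrous habit of each mineral, and cleavage fragments are the elongated pieces of its non-fibrous habit. Each of the 5 groups had 3 libraries, 15 in all. The labels do not say whether these are separate cultures, so p-values measure only the spread between libraries.

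Chaperones bind unfolded polypeptides and keep them from aggregating. In the cytosol HSP70 proteins work in cycles that J-domain co-chaperones (the Dnaj genes) start and exchange factors such as Bag3 end, HSP90 matures kinases and receptors, and the ring-shaped TRiC/CCT complex folds actin and tubulin. The factor HSF1 switches on the cytosolic genes when proteins misfold. In the ER, BiP (Hspa5), Grp94 (Hsp90b1) and the protein disulfide isomerases fold secreted and membrane proteins, and the sensors Ern1 and Atf6 raise their production through the unfolded protein response. Ern1, also called IRE1, splices the mRNA of the transcription factor Xbp1. Mitochondria fold imported proteins with mortalin (Hspa9) and the Hspd1–Hspe1 chaperonin. Macrophages rely on the ER system for the secretion of cytokines and on the cytosolic system under oxidative load.

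The DNA letters that these pathways read can be shown for the members whose promoters hold them. The RefSeq promoter table (GRCm38.p6, 250 bases before to 50 after each start) matched 61 of the 77 members. Only the 250 bases before each start were searched. A member with more than 1 promoter, as 15 were, was counted if any of them held the element. The whole table was counted by promoter. The ER stress element was searched on both strands as CCAAT, any 9 bases and CCACG. It stood in the promoters of 5 of 21 ER members (23.8%) and of none of 32 cytosolic members, against 37 of 32851 promoters in the table (0.113%). Each line shows the element in capitals with its flanks in lower case, in the direction of the gene. In Creld2 and in the second Hsp90b1 line it lies on the other strand.
Hspa5 at chr2:34772020-34772048 (+): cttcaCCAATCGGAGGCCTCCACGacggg
Hsp90b1 at chr10:86705633-86705661 (-): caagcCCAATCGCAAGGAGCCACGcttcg
Hsp90b1 at chr10:86705528-86705556 (-): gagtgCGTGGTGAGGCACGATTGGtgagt
Pdia6 at chr12:17266486-17266514 (+): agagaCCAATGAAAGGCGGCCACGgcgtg
Dnajc3 at chr14:118937822-118937850 (+): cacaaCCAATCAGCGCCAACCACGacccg
Creld2 at chr15:88819515-88819543 (+): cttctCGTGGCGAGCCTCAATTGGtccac

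The heat shock element was searched as GAA, 2 bases, TTC, 2 bases and GAA, or as TTC, 2 bases, GAA, 2 bases and TTC. It stood in the promoters of Hspd1, Hspe1 and Dnajb6 among the members (3 of 61, 4.92%), and in 153 promoters of the whole table (0.466%). Hspd1 and Hspe1 are divergent neighbours that share 1 promoter region, so both lines show the same place read in opposite directions.
Hspd1 at chr1:55088056-55088084 (-): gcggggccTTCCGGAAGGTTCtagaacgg
Hspe1 at chr1:55088056-55088084 (+): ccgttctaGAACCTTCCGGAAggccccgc
Dnajb6 at chr5:29735844-29735872 (+): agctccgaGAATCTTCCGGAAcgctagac
A match is a description of these letters, and no match says only that they are not in this window.

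All 77 members passed the filter on low values (at least 0.5 FPKM in at least 3 libraries), no library was listed at 0 for any of them, and 10616 genes were tested in all. FPKM are fragment counts scaled to transcript length and library size, so levels of different genes can be compared per length. The highest members in untreated cells were Hsp90ab1, the constitutive cytosolic HSP90, at 364 FPKM, Hsp90b1 at 294 FPKM, the constitutive HSP70 Hspa8 at 287 ± 37.7 FPKM (SD, n = 3), the disulfide isomerase Pdia3 at 206 FPKM and the mitochondrial HSP60 Hspd1 at 129 FPKM. The lowest were the J-domain genes Dnajb2 at 0.388 FPKM and Dnajb4 at 0.968 FPKM. The members together took 1.13% ± 0.0148 of all FPKM after riebeckite asbestos, 1.09% ± 0.00593 after riebeckite fragments, 1.13% ± 0.00736 after tremolite asbestos, 1.13% ± 0.0247 after tremolite fragments and 1.19% ± 0.0564 in untreated cells (SD, n = 3 each).

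Most chaperone genes were not called after any given particle, and those that were changed in small steps. A call here is a Benjamini-Hochberg adjusted p under 0.05 from limma on log2(FPKM + 1), adjusted over all genes tested. After riebeckite asbestos 12 members (15.6%) were higher and 16 (20.8%) lower than in untreated cells, where 21.0% of all tested genes were called higher and 24.3% lower. After riebeckite fragments 9 members (11.7%) were higher and 16 (20.8%) lower, beside 15.3% and 23.1% of all genes. Tremolite asbestos gave 3 members (3.90%) higher and 11 (14.3%) lower, beside 10.0% and 13.9%. Tremolite fragments gave 4 (5.19%) higher and 14 (18.2%) lower, beside 12.5% and 15%. The shares called lower were thus near those of all genes, and the shares called higher were smaller.

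The split of higher and lower calls depended on the scaling of the libraries. Rescaling to nuclear genes was added once the values were known. It gave 8 higher and 23 lower after riebeckite asbestos and 5 and 22 after riebeckite fragments. Medians of the log2 fold change there were −0.06 and −0.09 for members, and −0.06 and −0.09 for all genes. Trimmed-mean rescaling (TMM) gave 7 higher and 6 lower after tremolite asbestos, and 5 higher and 8 lower after tremolite fragments. TMM values were on a far larger scale, where the 1 added to FPKM carried almost no weight. What TMM changed, here and below, therefore mixes the rescaling with that loss of weight. Quantile normalization gave 5 and 9 after tremolite asbestos. No called member changed sign under these scalings. The shares of all genes called under them, here and below, are not given. Without rescaling, the members' median log2 fold change was −0.01, −0.04, −0.02 and −0.01 after riebeckite asbestos, riebeckite fragments, tremolite asbestos and tremolite fragments. That of all genes was −0.02, −0.04, −0.03 and −0.02. Changes of at least 0.5 on the log2 scale were found for 2.60%, 3.90%, 1.30% and 1.30% of members and for 11.0%, 8.68%, 4.79% and 5.60% of all genes in the same order.

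**Figure D1:**
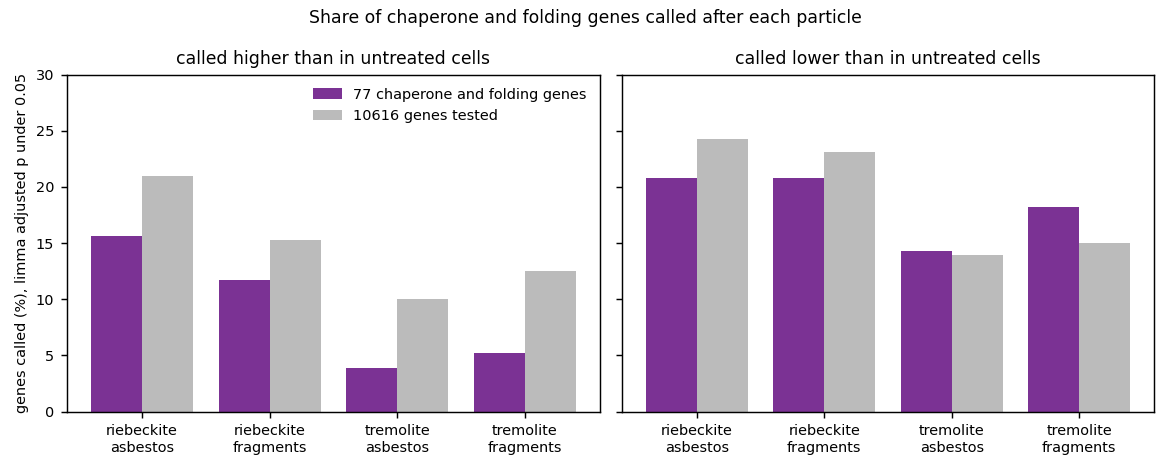
Percent of the 77 members and of all 10616 tested genes called higher or lower than in untreated cells after each particle (limma, adjusted p under 0.05). The members' bars for higher calls lie below those of all genes in the 4 comparisons with untreated cells, as in 15.6% against 21.0% after riebeckite asbestos.

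The 4 comparisons with untreated cells share the same 3 control libraries, so their values are given side by side. Of the 77 members 40 were called in at least 1 of the 4, 37 in none, and 0 in opposite directions. Lower in all 4 were 7 members: the transcription factor Xbp1, the ER co-chaperone component Sdf2l1, the histone co-chaperone Dnajc9, the TRiC subunits Cct2, Cct5 and Cct8, and Hspd1. Higher in all 4 were Dnajb13 and Dnajb6. Such counts over all genes are not given, so these describe the members only. TMM rescaling left 5 lower in all 4, without Cct2 and Cct8, and 3 higher, with Dnaja2 added, and rescaling to nuclear genes left the same 7 lower and Dnajb13 alone higher.

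**Figure D2:**
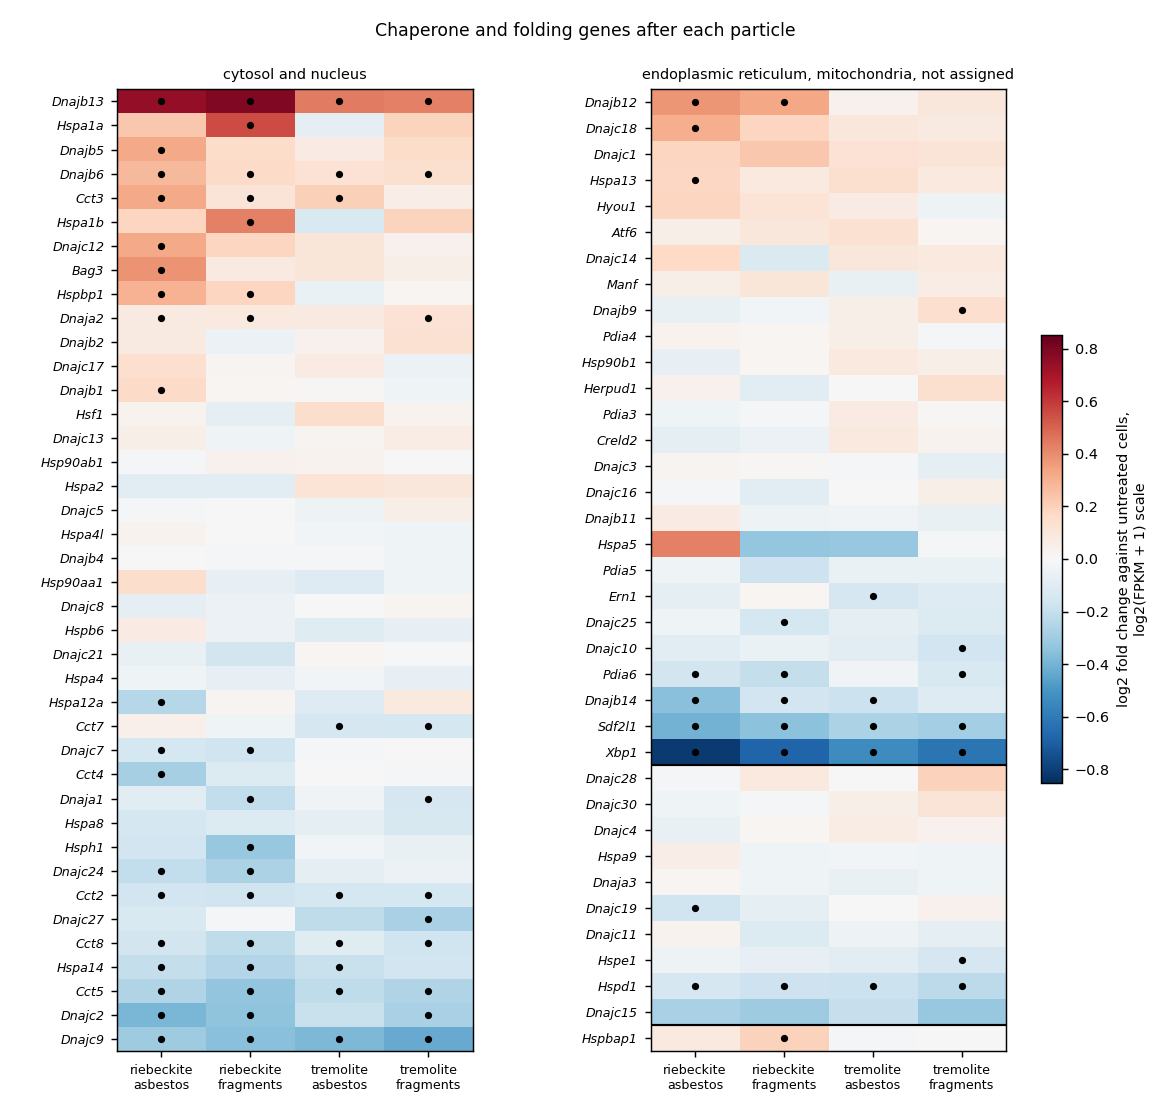
Log2 fold change against untreated cells, on the log2(FPKM + 1) scale, of all 77 members by compartment, with a column for each particle and a black dot where the member was called. Xbp1 is the darkest blue cell of the map at −0.81 after riebeckite asbestos, and Dnajb13 the darkest red at 0.79 after riebeckite fragments.

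Of the 26 ER members, 3 rose and 4 fell after riebeckite asbestos, 1 rose and 5 fell after riebeckite fragments, 0 rose and 4 fell after tremolite asbestos, and 1 rose and 4 fell after tremolite fragments. These are 11.5% higher and 15.4% lower, 3.85% and 19.2%, 0% and 15.4%, and 3.85% and 15.4%, against shares over all genes of 21.0% higher and 24.3% lower, 15.3% and 23.1%, 10.0% and 13.9%, and 12.5% and 15%. Xbp1, whose protein drives genes of ER folding and secretion, changed most. Its level (ENSMUSG00000020484.18, chromosome 11, 5520659 to 5525893, plus strand, GRCm38) was 59.4, 60.8 and 62.5 FPKM with riebeckite asbestos, 68.3, 65.6 and 66.7 with riebeckite fragments, 75.1, 71.1 and 75.3 with tremolite asbestos and 66.0, 73.3 and 69.8 with tremolite fragments, against 109, 106 and 108 FPKM in untreated cells. Every exposed library lay below every untreated one. The log2 fold change was −0.81 (SE 0.038, limma adjusted p = 2.16e-09) after riebeckite asbestos, −0.68 (adjusted p = 1.9e-08) after riebeckite fragments, −0.54 (adjusted p = 4.6e-07) after tremolite asbestos and −0.62 (adjusted p = 8.9e-08) after tremolite fragments. The deposited transcripts moved the same way: Xbp1-201 lay at 75.2 to 94.8 FPKM in exposed and 131 to 139 FPKM in untreated libraries, Xbp1-203 at 4.34 to 7.41 against 9.04 to 10.5, and Xbp1-204 at 5.72 to 9.93 against 13.2 to 15.7. Which deposited transcript carries the splice made by Ern1 was not examined.

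Sdf2l1, which helps BiP and its J-domain partners bind unfolded chains, followed with a smaller fall. Its level (ENSMUSG00000022769.7, chromosome 16, 17130138 to 17132383, minus strand) was 56.8, 51.1 and 52.8 FPKM with riebeckite asbestos, 58.9, 55.6 and 52.5 with riebeckite fragments, 60.2, 56.4 and 59.9 with tremolite asbestos and 56.0, 59.3 and 58.7 with tremolite fragments, against 74.7, 70.9 and 67.9 in untreated cells. No exposed library reached the lowest untreated one. The log2 fold changes were −0.40 (SE 0.052, limma adjusted p = 3.11e-05), −0.35 (0.00014), −0.27 (0.00202) and −0.29 (0.000923) in the same order of particles, with adjusted p in parentheses. The Xbp1 and Sdf2l1 calls held without any 1 library.

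Among the main folding enzymes of the ER, Pdia6 fell after 3 of the particles, and Hsp90b1, Pdia3 and Pdia4 were not called against untreated cells. Hsp90b1 averaged 280, 298, 312 and 305 FPKM after riebeckite asbestos, riebeckite fragments, tremolite asbestos and tremolite fragments and 294 FPKM in untreated cells, and no comparison with untreated cells passed, except riebeckite asbestos (−0.13) after rescaling to nuclear genes. Of the 4 disulfide isomerases, Pdia6 fell to 46.6 ± 1.77 FPKM after riebeckite asbestos, 45.0 ± 1.22 after riebeckite fragments and 47.4 ± 1.11 after tremolite fragments, against 51.9 ± 1.18 in untreated cells (SD, n = 3 each). Its log2 fold changes were −0.15 (limma adjusted p = 0.00241), −0.20 (0.000392) and −0.13 (0.0118), and 50.9 ± 0.951 FPKM after tremolite asbestos did not pass. The tremolite fragment call was lost without tremolite fragment replicate 2 (−0.12). Pdia3 and Pdia4 lay at 200 to 216 FPKM and 103 to 108 FPKM over the 5 group means.

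Hyou1, Dnajb11, Manf, Creld2, Herpud1 and Atf6 were not called in any comparison with untreated cells. Group means of the BiP exchange factor Hyou1 lay between 17.6 and 20.7 FPKM, of the co-chaperone Dnajb11 between 49.3 and 54.1, of the secreted factor Manf between 22.9 and 25.7 and of Creld2 between 15.8 and 17.8. Those of Herpud1, which serves ER-associated degradation, lay between 21.2 and 25.3 FPKM, and those of the sensor Atf6 between 6.67 and 7.40. Atf6 passed after tremolite asbestos under TMM rescaling (0.19) and quantile normalization (0.15). Ern1 averaged 7.63 FPKM after tremolite asbestos and 8.53 FPKM in untreated cells, a log2 fold change of −0.14 (limma adjusted p = 0.0484) with overlapping libraries. That call was lost on leaving out any 1 of 13 of the 15 libraries, with values of −0.14 to −0.11. It was also lost under TMM rescaling (−0.12) or quantile normalization (−0.11), and with only the groups compared or sums of transcripts (−0.14 each). Without untreated replicate 3, Ern1 passed as lower after riebeckite asbestos and tremolite fragments, and Creld2 as lower after riebeckite asbestos.

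J-domain proteins of the ER went in different directions. Dnajb12 and Dnajb14 are related membrane proteins with the J domain in the cytosol that help degrade membrane proteins. Dnajb12 (ENSMUSG00000020109.13, chromosome 10, 59879556 to 59899302, plus strand) lay at 27.2, 24.8 and 25.4 FPKM with riebeckite asbestos, 26.9, 24.5 and 23.6 with riebeckite fragments, 18.6, 20.6 and 21.5 with tremolite asbestos and 20.1, 21.7 and 21.8 with tremolite fragments, against 19.9, 19.6 and 19.6 in untreated cells. All 6 riebeckite libraries lay above all untreated and tremolite libraries. The log2 fold change was 0.37 (SE 0.059, limma adjusted p = 0.00019) after riebeckite asbestos and 0.33 (0.000678) after riebeckite fragments, and the tremolite values of 0.04 and 0.10 did not pass.

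Dnajb14 averaged 5.89 FPKM after riebeckite asbestos, 6.85 after riebeckite fragments, 6.77 after tremolite asbestos and 7.15 after tremolite fragments, against 7.81 in untreated cells. It fell after riebeckite asbestos (−0.35, limma adjusted p = 7.13e-05), riebeckite fragments (−0.17, 0.0183) and tremolite asbestos (−0.18, 0.0172). The riebeckite fragment call was lost without untreated replicate 3 (−0.14) or riebeckite fragment replicates 1 (−0.16) or 2 (−0.15) and under TMM rescaling (−0.14), and the tremolite asbestos call without untreated replicate 3 (−0.16) or tremolite asbestos replicates 1 (−0.14) or 3 (−0.17). Dnajb9, also called ERdj4, restrains Ern1 in its resting state. It averaged 59.8 ± 2.37 FPKM after tremolite fragments and 54.2 ± 3.22 in untreated cells (SD, n = 3 each; 0.14, limma adjusted p = 0.0192), and this call was lost without untreated replicates 1 (0.11) or 2 (0.12) or tremolite fragment replicate 2 (0.11).

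Hspa5, the gene of BiP, stood at 2 separate levels among the libraries. Its level (ENSMUSG00000026864.13, chromosome 2, 34771970 to 34777547, plus strand) was 149, 152 and 150 FPKM with riebeckite asbestos, 146, 75.9 and 62.4 with riebeckite fragments, 158, 65.7 and 68.1 with tremolite asbestos and 144, 60.8 and 151 with tremolite fragments, against 60.3, 151 and 151 in untreated cells. Of the 15 libraries 9 lay at 144 to 158 FPKM and 6 at 60.3 to 75.9 FPKM, and 4 of the 5 groups held both levels. The log2 fold change was 0.43 after riebeckite asbestos (SE 0.460, limma adjusted p = 0.483), −0.33 (0.614) after riebeckite fragments, −0.32 (0.675) after tremolite asbestos and −0.02 (0.983) after tremolite fragments.

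The split of Hspa5 ran along its 2 deposited transcripts. Hspa5-202, with 8 exons and 2613 bases in GENCODE vM21, lay at 222 to 242 FPKM in the 9 high libraries and 35.1 to 72.0 in the 6 low ones. Hspa5-201, with 9 exons and 3672 bases by the same annotation, lay at 7.08 to 9.20 and 28.9 to 44.2 FPKM. The part of this assignment of reads in the gene value was not tested. Hspa5 was the only member with a spread over 1 log2 unit within a group (1.31), as 3.25% of all genes had. The median spread was 0.206 for members and 0.233 for all genes. Without Hspa5 the ER members took 0.414% ± 0.00758 of all FPKM after riebeckite asbestos, 0.414% ± 0.00753 after riebeckite fragments, 0.438% ± 0.0133 after tremolite asbestos and 0.431% ± 0.00654 after tremolite fragments, against 0.449% ± 0.00746 in untreated cells (SD, n = 3 each).

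**Figure D3:**
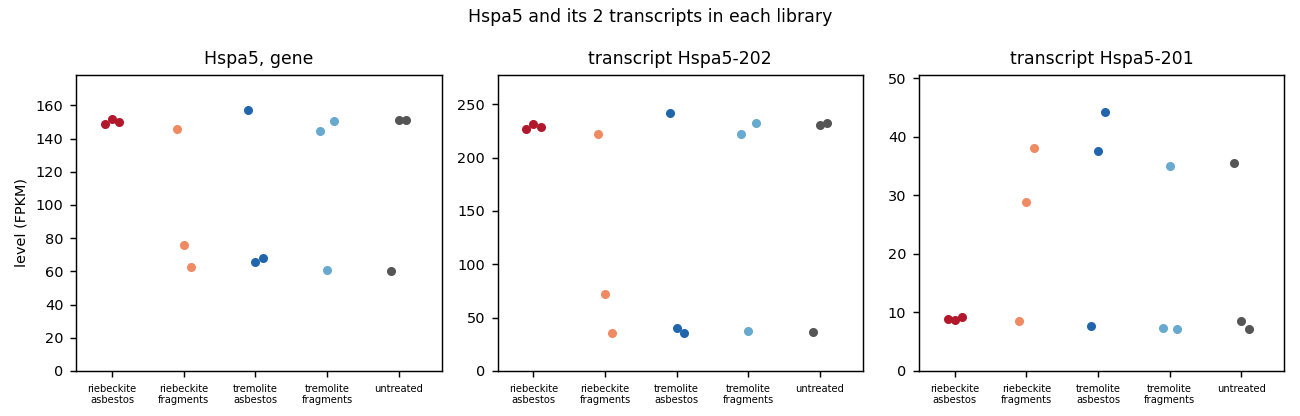
FPKM of Hspa5 and of its deposited transcripts Hspa5-202 and Hspa5-201 in each of the 15 libraries, by group. The gene values fall into 9 libraries at 144 to 158 FPKM and 6 at 60.3 to 75.9 FPKM, and the libraries that are low for Hspa5-202 are high for Hspa5-201.

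Of the 40 cytosolic and nuclear members, 9 rose and 10 fell after riebeckite asbestos, 7 rose and 10 fell after riebeckite fragments, 3 rose and 6 fell after tremolite asbestos, and 3 rose and 8 fell after tremolite fragments. In percent these are 22.5 higher and 25 lower, 17.5 and 25, 7.5 and 15, and 7.5 and 20. The same shares over all genes were 21.0 and 24.3, 15.3 and 23.1, 10.0 and 13.9, and 12.5 and 15. The factor Hsf1 had group means of 2.26 to 2.82 FPKM and was not called. The abundant chaperones did not pass against untreated cells either. Hsp90ab1 averaged 360 FPKM after riebeckite asbestos, 373 after riebeckite fragments, 371 after tremolite asbestos, 363 after tremolite fragments and 364 in untreated cells. It passed as lower after riebeckite asbestos under rescaling to nuclear genes (−0.07) and as higher after riebeckite fragments under TMM rescaling (0.09). Hspa8 averaged 258 ± 13.1 FPKM after riebeckite asbestos and 287 ± 37.7 in untreated cells (−0.15, limma adjusted p = 0.323). The stress-inducible HSP90 Hsp90aa1 averaged 64.3 ± 6.91 FPKM after riebeckite asbestos and 57.8 ± 2.49 in untreated cells (0.15, limma adjusted p = 0.197; SD, n = 3 each).

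The inducible HSP70 genes Hspa1a and Hspa1b are near-identical neighbours on chromosome 17. They are shown because reads can be split between them. Their transcripts in GENCODE vM21, of 2967 and 2803 bases, share 2514 of 2771 aligned bases (90.7%), so the level of either gene is uncertain. The last 60 bases before their starts (GRCm38.p6, gene direction) differ at 1 base, in capitals, and 250 bases before the starts differ at 3.
Hspa1a at chr17:34972157-34972216 (-): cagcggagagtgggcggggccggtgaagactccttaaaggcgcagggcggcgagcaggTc
Hspa1b at chr17:34959239-34959298 (-): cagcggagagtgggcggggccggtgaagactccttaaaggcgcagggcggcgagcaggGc

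Both genes were low, with their highest mean after riebeckite fragments. Hspa1a (ENSMUSG00000091971.3, 34969190 to 34972156, minus strand) lay at 1.51, 1.50 and 1.85 FPKM with riebeckite asbestos, 2.69, 1.98 and 2.16 with riebeckite fragments, 0.955, 1.26 and 1.13 with tremolite asbestos and 1.40, 1.63 and 1.59 with tremolite fragments, against 1.18, 1.48 and 1.05 in untreated cells. Hspa1b (ENSMUSG00000090877.3, 34956436 to 34959238, minus strand) lay at 1.66, 1.85 and 1.95 FPKM, 2.84, 2.03 and 2.23, 1.39, 1.25 and 1.21, and 1.52, 2.09 and 1.92 in the same order of particles, against 1.36, 1.57 and 1.54 in untreated cells. The riebeckite fragment libraries lay above the untreated ones for both genes. There the log2 fold change was 0.55 (SE 0.095, limma adjusted p = 0.000469) for Hspa1a and 0.43 (SE 0.092, adjusted p = 0.00237) for Hspa1b. Other particles did not pass for either gene. Hspa1a after riebeckite asbestos stood at 0.23 (adjusted p = 0.0637) and passed without untreated replicate 2 (0.31). It also passed under TMM rescaling (0.42), where the added 1 carried almost no weight.

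Bag3, the exchange factor that hands HSP70 clients to autophagy, rose after riebeckite asbestos. It lay (ENSMUSG00000030847.8, chromosome 7, 128523616 to 128546981, plus strand) at 26.1, 24.4 and 25.7 FPKM there, at 20.5, 20.6 and 20.1 with riebeckite fragments, at 20.9, 20.8 and 20.4 with tremolite asbestos and at 19.1, 21.2 and 19.6 with tremolite fragments, against 18.8, 18.3 and 20.7 in untreated cells. The 3 riebeckite asbestos libraries stood above the other 12. The log2 fold change was 0.38 (SE 0.048, limma adjusted p = 2.58e-05) after riebeckite asbestos. After the other particles it was 0.08, 0.10 and 0.05 and did not pass. Without untreated replicate 3, Bag3 passed after riebeckite fragments (0.13) and tremolite asbestos (0.15). Hspbp1, a further HSP70 exchange factor, averaged 10.8 ± 0.840 FPKM after riebeckite asbestos and 8.67 ± 0.917 in untreated cells (0.29, limma adjusted p = 0.00356; SD, n = 3 each). It averaged 9.97 ± 0.462 FPKM after riebeckite fragments (0.18, adjusted p = 0.0493), a call lost on leaving out any 1 of 12 libraries (0.10 to 0.22).

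Within the HSP70 and HSP110 proteins of the cytosol, 9 in number, 0 rose and 2 fell after riebeckite asbestos, 2 rose and 2 fell after riebeckite fragments, 0 rose and 1 fell after tremolite asbestos, and 0 were called after tremolite fragments. With 9 genes each call is 11.1% of the group, to be read beside the 10.0% to 24.3% of all genes called in a given direction. Hsph1, the HSP110 that reloads HSP70 with nucleotide, averaged 7.28 FPKM after riebeckite fragments and 9.34 in untreated cells (−0.32, limma adjusted p = 0.00136). After riebeckite asbestos it stood at 8.23 FPKM (−0.16, adjusted p = 0.0519). There it passed without untreated replicate 2 (−0.23) or riebeckite fragment replicate 1 (−0.16), under quantile normalization or a mean of at least 5 FPKM (−0.16 each), with sums of transcripts (−0.29) and under rescaling to nuclear genes (−0.21). Hspa12a, a distant HSP70 relative, averaged 15.2 FPKM after riebeckite asbestos and 18.2 in untreated cells (−0.25, adjusted p = 0.00148). Hspa14 averaged 12.0 FPKM after riebeckite asbestos (−0.20, adjusted p = 0.0177), 11.6 after riebeckite fragments (−0.25, 0.0073) and 12.1 after tremolite asbestos (−0.19, 0.0473), against 13.9 in untreated cells. The riebeckite asbestos call was lost without untreated replicate 2 (−0.17) or riebeckite asbestos replicates 1 (−0.19) or 3 (−0.17), and the tremolite asbestos call on leaving out any 1 of 11 libraries (−0.22 to −0.15).

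**Figure D4:**
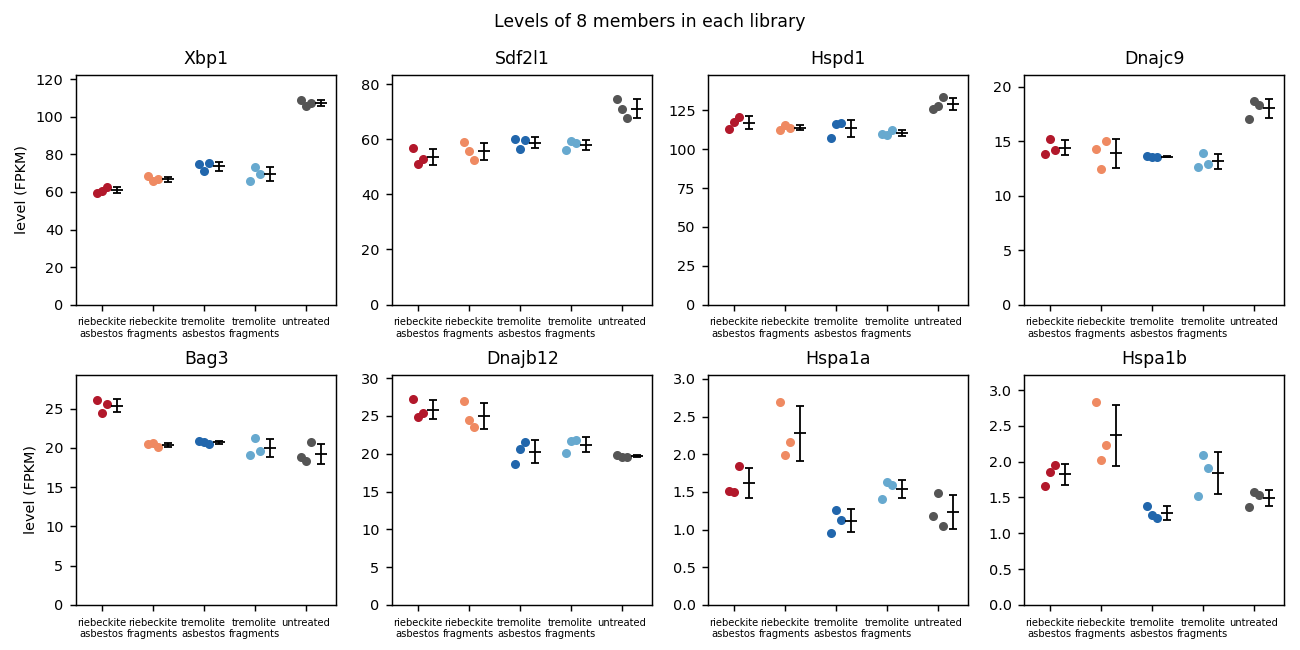
FPKM of 8 members in each library, by group, with the group mean ± SD (n = 3) as a bar. Xbp1, Sdf2l1, Hspd1 and Dnajc9 are lower in all exposed groups, Bag3 is higher after riebeckite asbestos, Dnajb12 is higher after both riebeckite particles, and the means of Hspa1a and Hspa1b are highest after riebeckite fragments.

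Of the 19 cytosolic J-domain co-chaperones, 6 rose and 4 fell after riebeckite asbestos, 3 rose and 5 fell after riebeckite fragments, 2 rose and 1 fell after tremolite asbestos, and 3 rose and 4 fell after tremolite fragments. In percent these are 31.6 higher and 21.1 lower, 15.8 and 26.3, 10.5 and 5.26, and 15.8 and 21.1, beside 21.0 and 24.3, 15.3 and 23.1, 10.0 and 13.9, and 12.5 and 15 over all genes. Dnajb6, which keeps aggregation-prone proteins soluble, averaged 27.9 ± 0.494 FPKM after riebeckite asbestos, 25.8 ± 0.410 after riebeckite fragments, 25.0 ± 0.175 after tremolite asbestos and 25.3 ± 0.991 after tremolite fragments, against 22.9 ± 0.692 in untreated cells (SD, n = 3 each). These are log2 fold changes of 0.27 (limma adjusted p = 1.94e-05), 0.17 (0.00151), 0.12 (0.0187) and 0.14 (0.00719), and the tremolite asbestos call was lost without untreated replicate 1 (0.10) or tremolite asbestos replicate 2 (0.12). With sums of transcripts it did not pass after riebeckite fragments (0.07) or tremolite fragments (0.18), and under rescaling to nuclear genes it did not pass after tremolite asbestos (0.09). At least 1 of its 2 RefSeq promoters holds the heat shock element shown above. Promoters of Hspd1, called lower after all 4 particles, and of Hspe1 hold it as well. The part of the element in these values was not tested. Dnajb1, the main J-domain partner of inducible HSP70, averaged 11.7 ± 0.250 FPKM after riebeckite asbestos and 10.4 ± 0.0938 in untreated cells (0.16, limma adjusted p = 0.0147), a call lost under rescaling to nuclear genes (0.11).

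Dnajb13 changed most among them, although its known product serves the axoneme of cilia and flagella. It lay (ENSMUSG00000030708.14, chromosome 7, 100501716 to 100514960, minus strand) at 8.41, 7.12 and 5.17 FPKM with riebeckite asbestos, 7.30, 6.50 and 7.32 with riebeckite fragments, 5.29, 5.74 and 4.95 with tremolite asbestos and 5.93, 5.19 and 4.72 with tremolite fragments, against 3.72, 4.05 and 3.21 in untreated cells. No exposed library overlapped the untreated ones. The log2 fold change was 0.74 (SE 0.129, limma adjusted p = 0.000399), 0.79 (0.000306), 0.44 (0.0234) and 0.43 (0.024) in that order. The tremolite asbestos call was lost without untreated replicates 1 (0.46) or 3 (0.37) or tremolite asbestos replicates 1 (0.45) or 2 (0.40), and the tremolite fragment call without untreated replicates 1 (0.44) or 3 (0.36) or tremolite fragment replicates 1 (0.36) or 2 (0.44).

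Dnajb13 overlaps Ucp2 on the opposite strand, and whether counting used the strand is not given. Ucp2 averaged 74.2, 76.2, 63.9 and 68.0 FPKM after the same particles and 70.1 FPKM in untreated cells, and its part in the Dnajb13 values was not tested. With sums of the deposited transcripts in place of gene values, Dnajb13 stood at 0.59, 0.40, −0.49 and 0.58 after the same particles, and none of these passed.

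Among the J-domain genes that fell, Dnajc9 hands histones to chromatin. It lay (ENSMUSG00000021811.7, chromosome 14, 20384638 to 20388910, minus strand) at 13.8, 15.2 and 14.2 FPKM with riebeckite asbestos, 14.3, 12.4 and 15 with riebeckite fragments, 13.6, 13.6 and 13.5 with tremolite asbestos and 12.6, 13.9 and 12.9 with tremolite fragments, against 17.0, 18.7 and 18.3 in untreated cells. All exposed libraries lay below all untreated ones. The log2 fold changes were −0.30 (SE 0.062, limma adjusted p = 0.00151), −0.35 (0.00057), −0.38 (0.000649) and −0.43 (0.0002), and they held without any 1 library. With sums of transcripts the values after riebeckite asbestos (−0.19) and riebeckite fragments (−0.26) did not pass. Dnajc2, which acts on nascent chains at the ribosome, averaged 13.8 FPKM after riebeckite asbestos (−0.39, adjusted p = 0.000424), 14.3 after riebeckite fragments (−0.34, 0.00149) and 15 after tremolite fragments (−0.27, 0.00888), against 18.4 in untreated cells. At 16.0 FPKM after tremolite asbestos it did not pass (−0.19, 0.0657).

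Smaller calls completed the group. Dnajc7 averaged 21.3 FPKM after riebeckite asbestos (−0.15, limma adjusted p = 0.00768) and 20.9 after riebeckite fragments (−0.17, 0.0033), against 23.7 in untreated cells. Dnajb5 averaged 2.50 FPKM after riebeckite asbestos and 1.81 in untreated cells (0.32, adjusted p = 0.00893), and did not pass with sums of transcripts (0.69). Dnajc12 averaged 2.39 and 1.71 FPKM in these groups (0.32, adjusted p = 0.0326), and this call was lost without untreated replicates 1 (0.29) or 2 (0.32) or riebeckite asbestos replicates 1 (0.28) or 3 (0.33) and with sums of transcripts (0.15). Dnaja2 was higher after riebeckite asbestos by 0.08 (adjusted p = 0.0384), after riebeckite fragments by 0.08 (0.0354) and after tremolite fragments by 0.12 (0.00654). The riebeckite asbestos and riebeckite fragment calls were lost on leaving out any 1 of 5 (0.06 to 0.08) and any 1 of 4 libraries (0.07 to 0.08). Both were also lost under quantile normalization (0.05 and 0.07), with only the groups compared, no mean-variance trend or sums of transcripts (0.08 each), and under rescaling to nuclear genes (0.03 each). Dnajc27 averaged 0.761 FPKM after tremolite fragments and 1.13 in untreated cells (−0.28, adjusted p = 0.0413). This call was lost on leaving out any 1 of 8 libraries (−0.30 to −0.21). It was also lost under TMM rescaling (−0.57), where the added 1 carried almost no weight. Hspbap1, named for its binding to a small heat shock protein, averaged 5.25 FPKM after riebeckite fragments and 4.48 in untreated cells (0.19, adjusted p = 0.0376), lost without untreated replicates 2 (0.21) or 3 (0.12) or riebeckite fragment replicates 2 (0.17) or 3 (0.19).

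The subunits of 1 TRiC ring did not move together. The complex has a fixed number of each subunit, of which 6 were measured under the Cct names. Of these, 1 rose and 4 fell after riebeckite asbestos, 1 rose and 3 fell after riebeckite fragments, 1 rose and 4 fell after tremolite asbestos, and 0 rose and 4 fell after tremolite fragments. The 3 or 4 subunits called lower are 50% or 66.7% of the 6, beside 24.3%, 23.1%, 13.9% and 15% of all genes. TMM rescaling left 4, 2, 1 and 2 lower in that order. A further subunit, Tcp1, was counted with the heat shock partners and is left out of these counts. It averaged 39.1, 37.6, 41.1 and 40.8 FPKM after riebeckite asbestos, riebeckite fragments, tremolite asbestos and tremolite fragments, against 45.1 in untreated cells. Cct3 (ENSMUSG00000001416.13, chromosome 3, 88297116 to 88321767, plus strand) was the one that rose, at 28.9, 27.8 and 26.8 FPKM with riebeckite asbestos, 24.5, 22.9 and 24.6 with riebeckite fragments, 25.3, 25.8 and 25.8 with tremolite asbestos and 23.4, 23.0 and 22.9 with tremolite fragments, against 22.1, 21.6 and 22.7 in untreated cells. Its exposed libraries lay above the untreated ones throughout. The log2 fold changes were 0.32 (SE 0.036, limma adjusted p = 9.36e-06), 0.11 (0.0251) and 0.20 (0.00115), while 0.06 after tremolite fragments did not pass. The riebeckite fragment call was lost without untreated replicates 1 (0.11) or 2 (0.09) or riebeckite fragment replicates 1 (0.10) or 3 (0.09) and under rescaling to nuclear genes (0.06).

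Cct5 (ENSMUSG00000022234.15, chromosome 15, 31590800 to 31601804, minus strand) fell, at 64.3, 67.7 and 64.8 FPKM with riebeckite asbestos, 62.4, 61.3 and 62.1 with riebeckite fragments, 68.7, 66.2 and 67.9 with tremolite asbestos and 63.9, 66.7 and 66.3 with tremolite fragments, against 80.0, 78.3 and 77.2 in untreated cells. No exposed library came near the untreated range. Against untreated cells it stood at −0.26 (SE 0.029, limma adjusted p = 9.24e-06), −0.34 (9.77e-07), −0.21 (0.000131) and −0.26 (2e-05). Cct4 was called after riebeckite asbestos and after no other particle, at 27.1, 27.3 and 27.6 FPKM against 33.5, 33.4 and 33.5 in untreated cells (−0.28, adjusted p = 0.00116). Chosen after their values were seen, Cct2 fell by 0.15 to 0.17 and Cct8 by 0.11 to 0.22 on the log2 scale in the 4 comparisons. Cct7 fell after both tremolite particles, by 0.15 on the log2 scale each, and stood at 0.05 and −0.04 after riebeckite asbestos and riebeckite fragments, where it did not pass.

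**Figure D5:**
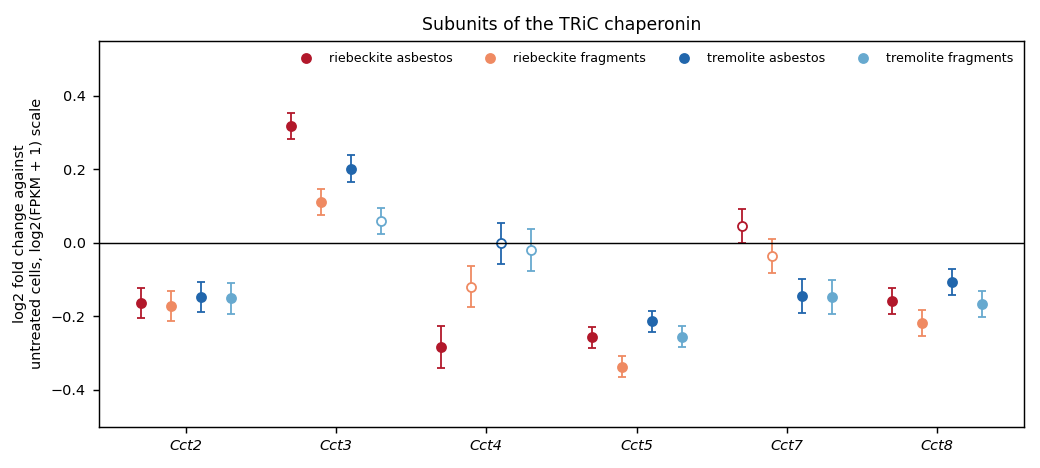
Log2 fold change against untreated cells ± SE of the 6 TRiC subunits with Cct names for each particle, with filled points for calls (limma, adjusted p under 0.05). Cct3 lies above 0 throughout, at 0.32 after riebeckite asbestos, and Cct5 lies below 0 throughout, at −0.21 to −0.34.

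Of the 10 mitochondrial members, 0 rose in any comparison with untreated cells, and 2, 1, 1 and 2 fell after riebeckite asbestos, riebeckite fragments, tremolite asbestos and tremolite fragments. These are 20%, 10%, 10% and 20% lower, beside 24.3%, 23.1%, 13.9% and 15% of all genes, of which 10.0% to 21.0% were called higher. Hspd1 (ENSMUSG00000025980.14, chromosome 1, 55077835 to 55088243, minus strand) lay at 113, 118 and 121 FPKM with riebeckite asbestos, 113, 116 and 113 with riebeckite fragments, 107, 117 and 117 with tremolite asbestos and 110, 109 and 112 with tremolite fragments, against 126, 128 and 133 in untreated cells. All exposed libraries were below all untreated ones. The log2 fold changes were −0.14 (SE 0.038, limma adjusted p = 0.00863), −0.18 (0.00218), −0.18 (0.00301) and −0.22 (0.000633). With sums of transcripts the values after riebeckite asbestos (−0.04), riebeckite fragments (−0.16) and tremolite fragments (−0.10) did not pass.

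Hspe1, the lid of the same chaperonin (ENSMUSG00000073676.4, chromosome 1, 55088132 to 55091307, plus strand), lay at 62.7, 63.0 and 64.0 FPKM with riebeckite asbestos, 60.9, 65.8 and 59.6 with riebeckite fragments, 59.4, 60.2 and 64.1 with tremolite asbestos and 59.9, 57.2 and 59.7 with tremolite fragments, against 63.0, 64.5 and 67.8 in untreated cells. It passed after tremolite fragments only (−0.14, limma adjusted p = 0.0226), where its libraries lay below the untreated ones, and that call was lost without untreated replicate 3 (−0.11) or tremolite fragment replicate 2 (−0.12) and under TMM rescaling (−0.12). After riebeckite fragments it passed under rescaling to nuclear genes (−0.13). Whether its values differ from those of Hspd1 beyond their errors was not tested. Hspa9 had group means of 98.7 to 105 FPKM and was not called. Dnajc19, of the import motor, averaged 3.11 FPKM after riebeckite asbestos and 3.62 in untreated cells (−0.17, adjusted p = 0.0331), lost without untreated replicates 2 (−0.12) or 3 (−0.17) or riebeckite asbestos replicates 1 (−0.14) or 3 (−0.16) and with sums of transcripts (−0.03).

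Transcripts of the mitochondrial genome took 6.44% ± 0.419 of all FPKM after riebeckite asbestos, 7.91% ± 0.395 after riebeckite fragments, 8.16% ± 0.172 after tremolite asbestos and 8.42% ± 0.281 after tremolite fragments, against 8.65% ± 0.181 in untreated cells (SD, n = 3 each). FPKM are shares of a library, so this moves the other values, and its part in the calls was not tested beyond the rescaling to nuclear genes given above.

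Between the habits of each mineral few members differed. In riebeckite asbestos against riebeckite fragments 2 were higher (2.60%) and 4 lower (5.19%), beside 6.71% and 3.85% of all genes. Bag3 was higher by 0.30 (limma adjusted p = 0.00228) and Cct3 by 0.21 (0.00357), and Hspa12a was lower, at 15.2 FPKM after riebeckite asbestos and 18.5 after riebeckite fragments (−0.27, 0.00591). Those 3 calls held without any 1 library, and with only the groups compared Cct3 and Hspa12a did not pass. Hspa1a (−0.32, adjusted p = 0.0491) and Xbp1 (−0.13, 0.0421) were each lost on leaving out any 1 of 10 libraries, with values of −0.34 to −0.23 and −0.15 to −0.12. Dnajb14 (−0.19, 0.0306) was lost without riebeckite asbestos replicates 1 or 2 or any riebeckite fragment library, with values of −0.21 to −0.16. Rescaling to nuclear genes gave 2 higher and 1 lower. In tremolite asbestos against tremolite fragments 0 members were called by limma, where 11 had an unadjusted p under 0.05, beside 0.386% of all genes called higher and 0.556% lower.

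The minerals were also compared within each habit. In riebeckite against tremolite asbestos 11 members were higher and 11 lower (14.3% each), beside 15.5% and 11.0% of all genes. Of the cytosolic members 10 were higher and 4 lower, and of the ER members 1 was higher and 6 lower. Quantile normalization gave 7 higher and 14 lower in all, and rescaling to nuclear genes 7 and 13. Higher after riebeckite asbestos were Hspbp1 (10.8 FPKM, against 8.27 after tremolite asbestos; 0.35, limma adjusted p = 0.00236), Dnajb12 (0.34, 0.00111), Bag3 (0.28, 0.000888) and Dnajb6 (0.15, 0.00446). Lower were Cct4 (−0.28, 0.00268), Xbp1 (−0.27, 0.000189) and Hsp90b1 (280 FPKM, against 312 after tremolite asbestos; −0.16, 0.00998). These 7 calls held without any 1 library, but Hsp90b1 did not pass with only the groups compared, and Dnajb6 stood at −0.000256 with sums of transcripts.

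Other calls between the asbestos forms did not hold when single libraries were left out. Hspa1a (0.31, limma adjusted p = 0.0298) was lost without riebeckite asbestos replicate 3 (0.25) or tremolite asbestos replicates 1 (0.25) or 3 (0.31), and Hspa1b (0.31, 0.0263) without riebeckite asbestos replicates 2 (0.30) or 3 (0.27) or tremolite asbestos replicates 2 (0.30) or 3 (0.28). Hspa2, an HSP70 best known from the testis, averaged 2.91 FPKM after riebeckite asbestos and 3.51 after tremolite asbestos (−0.21, adjusted p = 0.021). It was lost without riebeckite asbestos replicate 3 or tremolite asbestos replicates 2 or 3, with values of −0.21 to −0.17. Pdia6 (−0.13, 0.0152) was lost without replicate 3 of either asbestos group (−0.12 to −0.10). Hsp90aa1 (0.26, 0.0469), Dnajb9 (−0.12, 0.0444), Dnajc2 (−0.21, 0.0416) and Dnajc19 (−0.17, 0.0477) were each lost on leaving out any 1 of 11, 11, 11 and 10 libraries.

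In riebeckite against tremolite fragments 2 members were higher (2.60%) and 4 lower (5.19%), beside 5.31% and 6.01% of all genes. TMM rescaling gave 3 and 3, and rescaling to nuclear genes 1 and 6. Hspa1a (0.36, limma adjusted p = 0.028) was lost without riebeckite fragment replicate 1 (0.27) or any tremolite fragment library (0.32, 0.39 and 0.38), and Dnajb12 (0.23, 0.0263) without riebeckite fragment replicate 1 (0.17) or tremolite fragment replicates 1 (0.19) or 2 (0.24). Hsph1 (7.28 FPKM, against 8.86 after tremolite fragments; −0.25, 0.0225) was lost without riebeckite fragment replicate 1 (−0.21) or tremolite fragment replicates 2 (−0.26) or 3 (−0.23). Dnajb9 (−0.16, 0.0207) was lost without riebeckite fragment replicate 1 (−0.15) or tremolite fragment replicate 2 (−0.13), and Dnajc7 (−0.17, 0.0164) without replicate 3 of the riebeckite fragments or replicates 2 or 3 of the tremolite fragments (−0.16 to −0.15). Dnajc16 (−0.14, 0.0493) was lost on leaving out any 1 of 13 libraries (−0.17 to −0.11).

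The asbestos-minus-fragments difference was itself compared between the minerals. Over all genes 2.65% were called higher and 1.28% lower, and among members 0 were higher and Xbp1 was lower, with 9 members at an unadjusted p under 0.05. For Xbp1 the difference was lower in riebeckite than in tremolite by 0.22 on the log2 scale (−0.22, SE 0.054, limma adjusted p = 0.0437). The call was lost on leaving out any 1 of 12 libraries (−0.23 to −0.18), with only the groups compared or no mean-variance trend (−0.22 each), and with sums of transcripts or rescaling to nuclear genes (−0.20 each). Bag3 stood at 0.25 (adjusted p = 0.0599) and did not pass.

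Partner genes outside the naming rule were taken from 3 lists of the same pathways. Among 51 measured genes of ER folding, the unfolded protein response and ER-associated degradation, 21 rose and 2 fell after riebeckite asbestos, 15 rose and 4 fell after riebeckite fragments, 9 rose and 2 fell after tremolite asbestos, and 14 rose and 3 fell after tremolite fragments. In percent these are 41.2 higher and 3.92 lower, 29.4 and 7.84, 17.6 and 3.92, and 27.5 and 5.88, beside 21.0 and 24.3, 15.3 and 23.1, 10.0 and 13.9, and 12.5 and 15 over all genes. Fkbp11, a prolyl isomerase of the secretory path, averaged 56.3 ± 1.58 FPKM after riebeckite asbestos, 37.7 ± 0.891 after riebeckite fragments, 30.1 ± 1.67 after tremolite asbestos and 29.3 ± 1.94 after tremolite fragments, against 16.5 ± 1.21 in untreated cells (SD, n = 3 each). On the log2 scale these are 1.71 (limma adjusted p = 1.15e-10), 1.15 (6.68e-09), 0.83 (3.91e-07) and 0.79 (3.84e-07). Serp1, a component of the translocon, averaged 37.0, 43.0, 50.1 and 44.2 FPKM in the same order and 71.6 FPKM in untreated cells. Its log2 fold changes were −0.94, −0.72, −0.51 and −0.68, and all passed. Creld1, a relative of Creld2, averaged 4.71, 4.10, 3.22 and 3.70 FPKM in the same order and 2.57 FPKM in untreated cells. After riebeckite asbestos its log2 fold change was 0.68 (limma adjusted p = 7.2e-07).

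Among 28 partners of the heat shock system, 6 rose and 8 fell after riebeckite asbestos, 5 rose and 11 fell after riebeckite fragments, 1 rose and 5 fell after tremolite asbestos, and 2 rose and 7 fell after tremolite fragments. In percent these are 21.4 higher and 28.6 lower, 17.9 and 39.3, 3.57 and 17.9, and 7.14 and 25. Over all genes the shares were 21.0 and 24.3, 15.3 and 23.1, 10.0 and 13.9, and 12.5 and 15. Fkbp4, an HSP90 co-chaperone, averaged 42.9, 39.3, 39.6 and 39.2 FPKM after riebeckite asbestos, riebeckite fragments, tremolite asbestos and tremolite fragments, against 53.5 in untreated cells. After tremolite fragments its log2 fold change was −0.44 (limma adjusted p = 9.37e-07). Among 18 mitochondrial folding and protease genes, 3 rose and 3 fell after riebeckite asbestos, 1 rose and 2 fell after riebeckite fragments, 1 fell after tremolite asbestos, and 2 fell after tremolite fragments. In percent these are 16.7 higher and 16.7 lower, 5.56 and 11.1, 0 and 5.56, and 0 and 11.1, each below the share over all genes. After tremolite asbestos the stress factor Atf3, counted with the ER list, averaged 56.7 ± 2.35 FPKM and 38.3 ± 0.851 in untreated cells (0.55, limma adjusted p = 2.57e-05). It averaged 47.8 ± 2.20 FPKM after riebeckite asbestos, 39.8 ± 4.08 after riebeckite fragments and 47.0 ± 1.24 after tremolite fragments (SD, n = 3 each).

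The libraries resembled each other closely, with Spearman correlations across genes of 0.988 to 0.992 within and 0.963 to 0.990 between groups, and no pair was identical. All 11 macrophage markers were in the table, with a summed level of 6268 to 6527 FPKM after riebeckite asbestos, 6534 to 7009 after riebeckite fragments, 5433 to 6126 after tremolite asbestos, 5328 to 5702 after tremolite fragments and 5157 to 5632 in untreated cells. All 8 alveolar macrophage markers summed to 3916 to 4225, 4739 to 4949, 4532 to 5083 and 4808 to 4997 FPKM after the particles in that order, and 4773 to 5047 in untreated cells. Of 7 neutrophil markers S100a8 was present, at 54.3 to 58.5 FPKM after riebeckite asbestos, 50.6 to 52.4 after riebeckite fragments, 31.3 to 41.5 after tremolite asbestos, 26.5 to 29.6 after tremolite fragments and 25.7 to 31.3 in untreated cells. Of 6 epithelial markers Cdh1 and Krt19 were present, and summed to 54.2 to 58.5 FPKM after riebeckite asbestos, 55.1 to 56.8 after riebeckite fragments, 57.1 to 61.3 after tremolite asbestos, 58.1 to 68.5 after tremolite fragments and 64.5 to 64.9 in untreated cells. Of the markers of fibroblasts, hepatocytes, lymphoid cells, mast cells and erythroid cells 0 were in the table. The part of these markers in the results was not tested. In all, 23 members overlap another protein-coding gene, 16 of them among the 45 members called in at least 1 of the 9 comparisons, so their values are uncertain where reads could be shared. In bulk RNA, fewer cells of a type and less RNA per cell cannot be told apart.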

How the data were processed

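RNA of 15 libraries was sequenced after oligo(dT) selection and dUTP second-strand synthesis, per the labels' protocols. The submitters' processing notes name the tools cutadapt, HISAT2 and StringTie and the build GRCm38. How they were set, which annotation release was used and whether counting used the strand is not given in the sources used here. Deposited were a gene table and a transcript table by the authors, whose values point to FPKM and were used unchanged. No counts are in these tables, so the depth is unknown and no counting interval can be given. Gene and transcript values differ, and sums of transcripts were an alternative.

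The filter kept genes that reached 0.5 FPKM in 3 libraries. Values of log2(FPKM + 1) entered limma 3.58.1 (R 4.3.3) in 1 model of 15 libraries and 5 groups with a mean-variance trend. Fold changes on this scale understate the change of low genes. Adjustment of p-values followed Benjamini and Hochberg over all 10616 genes tested, comparison by comparison, with a threshold of 0.05. The code was tested on simulated data. Members, compartments, partner lists and tests were chosen with earlier results of these data known. Named members are 26 core genes, the 5 largest rises and 5 largest falls without overlap in each of 8 comparisons, members called in the test between minerals, and the 5 highest in untreated cells. Partner genes are named up to 3 per comparison by size of change.

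Alternatives were TMM rescaling, quantile normalization, a pseudocount of 0.1, no filter, a filter at a mean of 5 FPKM, a replicate block, a fit of only the groups compared, no trend, sums of transcripts and omission of each library. Rescaling to nuclear genes was chosen after the data were seen. Figures used matplotlib 3.10.9 in Python 3.11.15. All 77 members were found in GENCODE vM21, of which 69 lay at the same position.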

Additional observations from a re-analysis of the deposited data

Results flagged for a closer look

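For Xbp1 the difference between asbestos and cleavage fragments passed the test of a difference between the minerals, a call that most other settings ended. It was lower in riebeckite than in tremolite, at −0.22 on the log2 scale (SE 0.054, limma adjusted p = 0.0437). Xbp1 averaged 60.9 ± 1.54 FPKM after riebeckite asbestos and 66.8 ± 1.34 after its fragments. In tremolite the asbestos mean was 73.8 ± 2.40 and the fragment mean 69.7 ± 3.64 FPKM (SD, n = 3 each). The call was lost on leaving out any 1 of 12 libraries, with values of −0.23 to −0.18. It was also lost with only the groups compared or no mean-variance trend (−0.22 each), and with sums of transcripts or rescaling to nuclear genes (−0.20 each).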

How the results depend on the processing

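Of 101 calls of named members, 58 held without any 1 library, among them 48 of 67 against untreated cells and 10 of 34 between particles. The 101 include calls between the asbestos forms that are not given above, for Dnajb1, Dnajb5, Dnajb14, Dnajc7, Cct3 and Pdia3. Each of those was lost without at least 1 library. Over all alternatives the 101 calls gave 2511 values, of which 2146 passed, 362 fell short and 3 had the other sign. The 3 came from sums of transcripts: Dnajb13 after tremolite asbestos (−0.49), and Dnajc2 (0.12) and Dnajb6 (−0.000256) in riebeckite against tremolite asbestos. The cause was not tested.

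The number of members called fell to 8 (tremolite asbestos), 1 (riebeckite habits), 13 (asbestos forms) and 2 (fragment forms) with only the groups compared, and to 11 (tremolite fragments), 13 (asbestos forms) and 2 (fragment forms) with sums of transcripts. Rescaling to nuclear genes gave 3 for the riebeckite habits. For the difference between minerals a mean of at least 5 FPKM gave 2 (Xbp1, and Bag3 at 0.25, limma adjusted p = 0.0448), and the replicate block, no trend, sums of transcripts and nuclear rescaling gave 0 each. Shares over all genes are not given for these settings or for the omission of libraries below, so the counts describe the members only.

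Omitting each library gave 24 to 30 members called after riebeckite asbestos, 19 to 26 after riebeckite fragments, 8 to 14 after tremolite asbestos, 10 to 19 after tremolite fragments, 3 to 6 between riebeckite habits, 0 to 1 between tremolite habits, 10 to 21 between asbestos forms, 0 to 7 between fragment forms and 0 to 1 for the difference between minerals. The counts moved by over 1.5 times for tremolite asbestos without untreated replicate 1 (8) or tremolite asbestos replicates 1 (8) or 2 (9), and for tremolite fragments without tremolite fragment replicate 2 (10). The same held between riebeckite habits without replicate 1 of either (3 each), between asbestos forms without riebeckite asbestos replicate 3 (13) or tremolite asbestos replicates 2 (14) or 3 (10), and between fragment forms without riebeckite fragment replicate 1 (1) or tremolite fragment replicates 2 (0) or 3 (2).

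The labels share replicate numbers, but the 30 same-numbered pairs correlated at −0.061 to 0.172, 4 of them over 0.1, and 8 of 15 libraries resembled their own number most. The median correlation was 0.0185 for same-numbered and −0.0162 for differently numbered pairs. Whether same-numbered samples share more than a number was not tested further. The replicate block ended the call for the difference between minerals and moved no other count of calls by over 1.5 times. Without counts in the tables, what depth limits could not be examined.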
